A study of Papio with 24 samples.

Results

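Progenitor cells grown from the subcutaneous femoral fat of baboon fetuses were compared between 2 maternal diets. The comparison used every array labelled as subcutaneous femoral fat, 8 of the 24 arrays of the series, of which 4 came from restricted and 4 from control fetuses. In the restricted group the mothers received a diet cut by 30% for the whole of pregnancy, and in the control group they ate freely. Every fetus was at day 165 of gestation, where term is day 184, and no other treatment or genotype is given in the labels. The restricted fetuses were restricted_9085, restricted_2820, restricted_9075 and restricted_9073, and the control fetuses were control_9017, control_9087, control_8011 and control_8009, and values of single arrays are given in this order. Each diet group held 1 male fetus (restricted_9085 and control_9017) and 3 female fetuses.

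The cells were adipose-derived stem cells freed from the tissue by collagenase and cultured to confluence with 10% fetal bovine serum. They were then stored frozen, and a thawed stock was cultured to confluence once more. RNA of 3 wells of a fetus was pooled, so each array is 1 fetus and no array measures fat tissue itself. The same fetuses also gave omental and subcutaneous abdominal cells, which are used here only where the femoral difference is set against that of another depot. The question of the series is whether the effect of maternal restriction on these progenitors depends on the depot.

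Adipose-derived stem cells are fibroblast-like cells of the fat stroma that can turn into fat cells, and under other conditions into bone or cartilage cells. The transcription factors PPARG and CEBPA drive them towards the fat cell, while WNT and other signals hold them back. Femoral progenitors keep transcription factors of the limb from the embryo onward. Imprinted genes, which are read from a single parental copy, include several regulators of fetal growth and of fat formation.

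The label of the depot was checked against genes that mark position. PITX1, a hindlimb factor, lay between 5.75 and 10.1 on the 8 femoral arrays (normalised log2 intensity) and was detected on all of them, against a median of 4.59 and detection on 2 of 8 in abdominal cells, and 4.69 and 2 of 8 in omental cells. TBX15, a factor of the limb and trunk wall, lay between 7.47 and 8.84 on femoral arrays, against 5.93 to 7.37 on abdominal arrays, and was detected on no omental array. HOXC10, a HOX gene of the posterior trunk and hindlimb, was detected on 8 femoral, 1 abdominal and 0 omental arrays. Not every marker set femoral from abdominal cells. PITX1 reached 9.07 on an abdominal array, HOXC8 had a median of 10.7 in femoral and 11.0 in abdominal cells, and HOXD11 was detected on 1 femoral and 3 abdominal arrays. NKX3-2, a factor of the gut mesoderm, was detected on 3 of the 8 femoral arrays at up to 7.13, against 9.69 to 10.8 on the omental arrays. The progenitor markers PDGFRA, PDGFRB, CD44 and NT5E were detected on all 8 femoral arrays and ENG on 4, while the probe for THY1, another progenitor marker, was detected on none of the 8. The Y-linked RPS4Y1 and XIST lay where the labelled sex puts them on the femoral arrays, with RPS4Y1 at 12.4 at its highest and 5.01 at the median.

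Each femoral array detected between 13458 and 14994 of 48803 probes, and mean signals ran from 161 to 201. A probe counted as detected where its detection p was under 0.05, and 16933 probes detected on at least 4 of the 24 arrays were tested. They held 10228 genes with 1 probe each, the brightest, and 11058 of the probes were detected on all 8 femoral arrays. Array restricted_2820 had the lowest mean correlation with the other 7 femoral arrays (0.979) and restricted_9075 the next (0.980), against 0.985 to 0.987 for the other 6. Of the 10228 genes, 1691 were highest of the 8 arrays in restricted_2820 and 1736 in restricted_9075. For many named genes where leaving out one of these arrays shrank the difference by over 1.5 times or turned its sign, the value without it is given too.

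No gene passed the test for diet in femoral cells. Limma called 0 of 16933 probes at an adjusted p under 0.05 (0.00%), and the smallest adjusted p was 0.476. An unadjusted p under 0.05 was reached by 1050 probes (6.20%), of which 466 were higher (2.75%) and 584 lower (3.45%) in restricted cells. If no probe differed, 847 would be so placed. The higher probes made up 44.4% of the 1050, but 31.8% of 951 when arrays were scaled to their median in place of quantile normalisation. Counted by gene, 327 were higher (3.20%) and 401 lower (3.92%) at that threshold. All 4 restricted arrays lay above all 4 control arrays for 185 genes (1.81%) and below them for 238 (2.33%). Differences were above 0 for 4990 genes (48.8%), with a median of -0.00 on the log2 scale. The median standard error of a difference was 0.12, and the 8 arrays limit the precision of every value.

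Among the genes lower in restricted cells, those with the smallest p included a stem cell factor, an imprinted noncoding RNA and several transcription factors. KITLG, the ligand of the receptor KIT, stood at 5.44, 4.76, 4.57 and 4.97 on the restricted arrays, against 6.20, 5.80, 6.06 and 6.14 on the control arrays. No restricted array reached the lowest control array, and the probe was undetected on 1 restricted array. The difference was -1.11 ± 0.18 (log2, SE; limma adjusted p 0.476). In such cultures, fewer cells of a type and less RNA per cell cannot be told apart.

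MEG3, an imprinted noncoding RNA, stood at 8.74, 8.59, 8.29 and 8.30 in restricted cells, against 9.24, 9.34, 9.13 and 9.24 in control cells. The 4 control arrays lay within a narrow band, and every restricted array lay below it. It differed by -0.76 ± 0.12 (limma adjusted p 0.476). ZNF331, a zinc finger gene that is imprinted in humans, read 4.31, 4.34, 4.40 and 4.64 on restricted arrays, where its probe was not detected, against 5.07, 5.29, 5.68 and 5.35 on control arrays. The control signal of that probe was at least 1.51-fold higher (limma adjusted p 0.476). A bound of this kind divides the mean of the detected group by a floor in the other group, which on each array is the probe's reading or, where higher, the dimmest signal that counted as detected. A second, dimmer ZNF331 probe went the other way, at 0.15 ± 0.07, with 3 restricted arrays and no control array detected.

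LSP1, an actin-binding protein first found in lymphocytes, read 6.24, 5.67, 5.53 and 6.88 in restricted cells, against 7.27, 7.90, 7.47 and 7.63 in control cells. Restricted_9073 came nearest to the controls, and the groups did not overlap (difference -1.49 ± 0.28, limma adjusted p 0.524). SOX8, an HMG-box transcription factor, read 5.42, 5.18, 5.08 and 5.69 in restricted cells, against 6.74, 7.41, 5.96 and 6.72 in control cells. The control arrays were the more scattered ones, with control_8011 lowest, and the difference was -1.37 ± 0.27 (limma adjusted p 0.528). ARNT2, a partner of PAS-domain transcription factors, read 7.31, 6.46, 6.34 and 6.39 in restricted cells, against 7.65, 7.56, 7.67 and 7.40 in control cells. Restricted_9085 lay just under the lowest control array, and the other 3 restricted arrays lay far below it. ARNT2 differed by -0.95 ± 0.20 (limma adjusted p 0.588).

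GABPA, an ETS-family factor that acts on nuclear genes of mitochondrial proteins, read 7.29, 6.99, 7.07 and 7.04 in restricted cells, against 7.56, 7.57, 7.60 and 7.67 in control cells. The gap between the groups was small, and the difference was -0.50 ± 0.09. TNNT3, the troponin T of fast skeletal muscle, differed by -0.82 ± 0.13 and its probe was detected on 1 restricted and 4 control arrays. MOCS1, which makes the molybdenum cofactor, differed by -0.71 ± 0.15, with 1 of its 3 tested probes going the other way. FGD1, an activator of the small GTPase CDC42, differed by -0.46 ± 0.09, and KIF3B, a kinesin motor subunit needed for cilia, by -0.38 ± 0.08. The adjusted p values of these 5 genes lay between 0.476 and 0.556 in limma. The synaptic vesicle gene CPLX1 (-0.64), MRFAP1L2 (-0.54) and TEX9 (-0.59) also had groups that did not overlap. The SMIM10 probe was not detected in restricted cells and its control signal was at least 1.22-fold higher.

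The largest difference among the higher genes of smallest p was that of TNFRSF11B, or osteoprotegerin, the decoy receptor that keeps RANKL from its receptor. It read 10.77, 11.46, 10.56 and 9.75 in restricted cells, against 8.78, 8.34, 7.90 and 9.58 in control cells. Restricted_9073 and control_8009 came close to each other, and the groups did not overlap. The difference was 1.98 ± 0.41 (limma adjusted p 0.528) and 1.71 without restricted_2820. NNAT, an imprinted membrane proteolipid, read 9.72, 8.77, 10.52 and 10.25 in restricted cells, against 8.24, 8.16, 8.71 and 8.06 in control cells. Restricted_2820 lay closest to the controls. The difference was 1.52 ± 0.34 (limma adjusted p 0.588), a second probe gave 1.45 ± 0.30, and without restricted_2820 it was 1.87 (limma adjusted p 0.0743).

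SPINT2, a membrane inhibitor of serine proteases, read 10.61, 10.94, 11.29 and 11.03 in restricted cells, against 10.25, 9.95, 10.25 and 10.28 in control cells. Every restricted array was above every control array, and the difference was 0.78 ± 0.15 (limma adjusted p 0.524). IGSF1, an immunoglobulin-superfamily membrane protein best known from the pituitary, read 5.74, 6.35, 6.09 and 5.95 in restricted cells, against 5.01, 5.48, 4.88 and 5.26 in control cells. All 3 of its tested probes were above 0, and the brightest differed by 0.87 ± 0.16. PGAP4, which adds a sugar to GPI anchors, read 7.21, 6.73, 7.09 and 6.78 in restricted cells, against 6.31, 6.40, 6.18 and 6.44 in control cells (difference 0.62 ± 0.12). TAP1, the transporter that loads peptides for antigen display, read 8.96, 9.48, 9.08 and 9.15 in restricted cells, against 8.78, 8.46, 8.63 and 8.40 in control cells. Its difference of 0.60 ± 0.13 was 0.50 without restricted_2820, the array in which TAP1 was highest.

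PSG9 and PSG5 encode pregnancy-specific glycoproteins, secreted proteins known from the placenta, and both were among the 15 higher genes of smallest p. PSG9 read 9.39, 8.92, 9.07 and 8.48 in restricted cells, against 8.42, 7.44, 7.26 and 7.58 in control cells. Restricted_9073 and control_9017 almost met, and the difference was 1.29 ± 0.26 (limma adjusted p 0.528). PSG5 differed by 0.84 ± 0.17 and was detected on 4 restricted arrays and 1 control array. These genes are near-identical copies of each other, so which of them a probe reads in baboon cells is uncertain. The microtubule-bound ubiquitin ligase MID2 differed by 0.60 ± 0.12, with 1 of its 4 tested probes going the other way. LRP11, of the LDL receptor family, differed by 0.41 ± 0.08, NHLRC2 by 0.43 ± 0.09 and adenosine kinase, ADK, by 0.35 ± 0.08. MAMSTR, a coactivator of MEF2 factors, differed by 0.62 ± 0.14, and FAXDC2 by 0.37 ± 0.08. The probe of the zinc finger gene ZNF671 was not detected on control arrays, and its restricted signal was at least 1.14-fold higher. The 15 higher genes of smallest p had adjusted p values of 0.524 to 0.588 in limma.

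**Figure D1:**
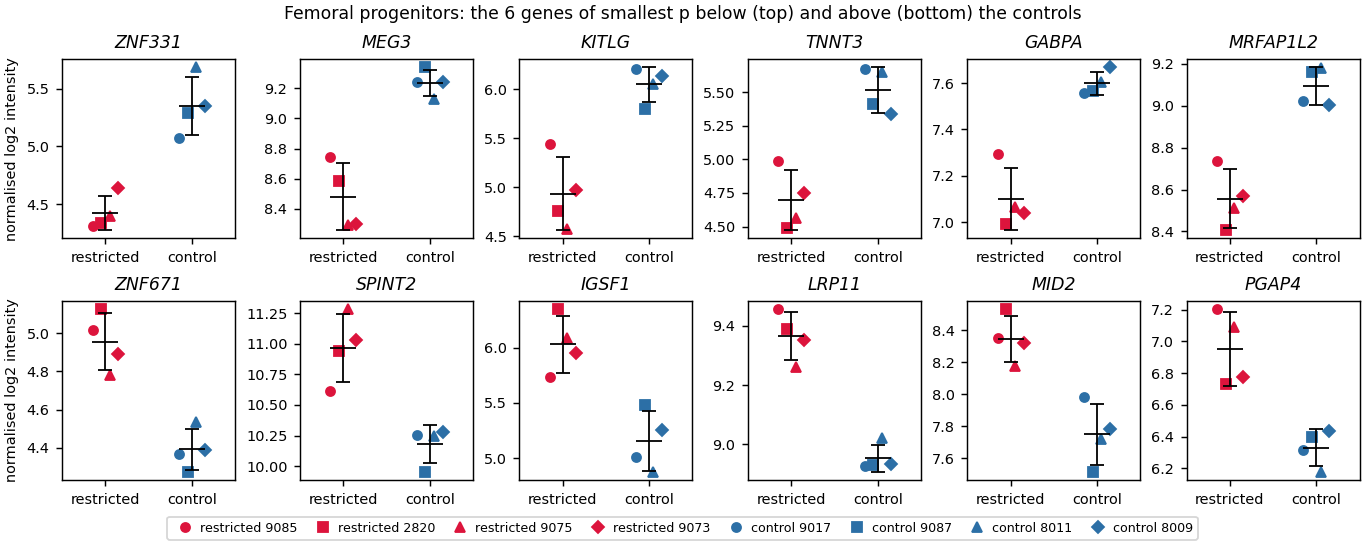
Normalised log2 intensity (vertical axes) on the 4 restricted arrays (red, left) and 4 control arrays (blue, right) for the 6 genes of smallest p lower in restricted cells (top row) and the 6 higher (bottom row). Points are single fetuses, marked by shape, and black bars are the mean and SD; the arrays of the groups do not overlap in any panel, and no gene passed limma's adjusted threshold.

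Imprinted genes were read from 19 tested genes of 30 listed. At an unadjusted p under 0.05, 6 were lower (31.6%, against 3.92% of all tested genes) and 1 higher (5.26%, against 3.20%), and none passed the adjusted test. Restricted arrays lay wholly below the controls for 5 of them (26.3%, against 2.33% of all genes) and wholly above for 1 (5.26%, against 1.81%). The median difference of the list was -0.05, against -0.00 over all genes, and 7 of the 19 were above 0 (36.8%, against 48.8%). Besides MEG3, ZNF331 and NNAT, the members at issue were IGF2, H19, CDKN1C and PEG3.

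IGF2, the fetal insulin-like growth factor, read 5.47, 5.82, 5.84 and 5.67 in restricted cells, against 7.30, 8.45, 6.33 and 6.13 in control cells. The restricted arrays were close together, the control arrays were widely spread, and the lowest control lay above the highest restricted array. The difference was -1.35 ± 0.44 (limma adjusted p 0.764), and a dimmer probe gave -0.83 ± 0.37 with overlapping arrays. H19, the noncoding RNA beside IGF2, read 11.35, 13.03, 11.26 and 12.75 in restricted cells, against 13.56, 13.44, 13.35 and 13.01 in control cells. Restricted_2820 lay within the control range, and the difference was -1.24 ± 0.39, or -1.55 without that array (limma adjusted p 0.751 and 0.512).

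CDKN1C, an imprinted inhibitor of the cell cycle, read 5.49, 5.23, 5.74 and 5.65 in restricted cells, against 6.46, 6.46, 5.80 and 5.85 in control cells. Control_8011 and control_8009 were only just above the restricted arrays, and the difference was -0.61 ± 0.19 (limma adjusted p 0.730). PEG3, an imprinted zinc finger gene read from the paternal copy, was at 4.90, 4.72, 5.08 and 5.19 in restricted cells, against 5.55, 5.67, 5.25 and 5.62 in control cells. Its probe was near the limit of detection, with 1 restricted array undetected, and the difference was -0.55 ± 0.13 (limma adjusted p 0.643). Of the other imprinted genes, DIRAS3 differed by -0.44, PLAGL1 by -0.21, SGCE by -0.16, MEST by 0.01, GRB10 by 0.04, GNAS by 0.07 and SNRPN by 0.17, all with overlapping arrays. The -0.44 of DIRAS3, a small GTPase, was 0.05 without restricted_2820, where it was lowest at 5.34. PLAGL1 differed by -0.07 without restricted_2820.

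The insulin-like growth factor axis covered the factors, their receptors and binding proteins. Of 17 tested genes, 2 were higher (11.8%, against 3.20% of all genes) and 1 lower (5.88%, against 3.92%) at an unadjusted p under 0.05. The 8 above 0 made up 47.1%, close to the 48.8% of all genes, and the median difference was -0.00. STC1, a stanniocalcin that inhibits the IGF-binding-protein protease PAPPA, read 8.97, 8.97, 8.13 and 6.94 in restricted cells, against 6.92, 6.85, 6.94 and 7.36 in control cells. Restricted_9073 lay among the controls and the other 3 above them, with a difference of 1.23 ± 0.40 (limma adjusted p 0.764). STC2, its relative, differed by 0.58 ± 0.21 and by 0.39 without restricted_2820. The growth hormone receptor GHR read 4.49, 4.65, 5.49 and 6.90 in restricted cells, against 4.72, 4.86, 4.76 and 4.79 in control cells, so 2 restricted arrays were high and 2 were not. The receptors IGF1R (0.20), INSR (-0.00) and IGF2R (-0.17) had overlapping arrays, as did the binding proteins IGFBP3 (-0.10), IGFBP4 (-0.28) and IGFBP5 (0.05). IGFBP4 differed by -0.01 without restricted_2820, and IGF1R by 0.03 without restricted_9075. IGFBP7 differed by 0.05 over all arrays, by -0.64 without restricted_2820 and by 0.80 without restricted_9075.

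Fat cell differentiation genes were represented by 27 tested genes. At an unadjusted p under 0.05, 2 were lower (7.41%, against 3.92% of all genes) and 1 higher (3.70%, against 3.20%). The 12 above 0 made up 44.4%, against 48.8%, and the median difference was -0.04. The lower ones were the factors at the head of the programme. CEBPA read 5.94, 6.14, 4.47 and 6.00 in restricted cells, against 6.68, 6.64, 7.69 and 6.52 in control cells. Restricted_9075 was lowest and undetected, control_8011 was highest, and the groups did not overlap. The difference was -1.25 ± 0.39 (limma adjusted p 0.751), and -0.86 without restricted_9075. PPARG read 7.87, 8.20, 6.50 and 7.89 in restricted cells, against 8.67, 8.23, 8.88 and 8.26 in control cells. The highest restricted array was just under the lowest control, and restricted_9075 stood far below the rest. PPARG differed by -0.89 ± 0.34 (limma adjusted p 0.780), by -0.52 without restricted_9075, and by -0.53 ± 0.22 on a second probe with overlapping arrays.

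Enzymes and storage proteins of the fat cell lay on both sides of 0. PNPLA2, the lipase that starts triglyceride breakdown, differed by 0.36 with an unadjusted p of 0.0276. The hormone-sensitive lipase LIPE (0.32), the droplet coat protein PLIN2 (0.30), the fatty acid carrier FABP4 (0.21) and the desaturase SCD (0.15) lay above 0, with overlapping arrays. Without restricted_2820, LIPE was 0.21, PLIN2 -0.03 and FABP4 0.08. FASN (-0.09), SREBF1 (-0.05) and the early regulator ZNF423 (-0.20) lay below 0. Without restricted_2820, FASN was 0.02, SREBF1 0.10 and ZNF423 -0.40. The lipid carrier APOE differed by -0.91 ± 0.56 and the retinol carrier RBP4 by -0.62 ± 0.52, and both had overlapping arrays. RBP4 ran from 5.68 to 7.75 in restricted cells, against 6.04 to 8.23 in control cells, and differed by -0.27 without restricted_9075. The leptin gene LEP read 5.94 to 6.15 in restricted cells, against 6.07 to 6.21 in control cells (difference -0.11 ± 0.08).

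The list of anti-adipogenic and progenitor genes held WNT ligands and also WNT antagonists. It gave 1 higher and 1 lower of 17 at an unadjusted p under 0.05 (5.88% each, against 3.20% and 3.92% of all genes). The median difference was -0.01. SFRP1, a secreted WNT antagonist, read 9.73, 8.92, 10.55 and 9.02 in restricted cells, against 8.71, 8.35, 8.87 and 8.67 in control cells. The groups did not overlap, and restricted_9075 was highest (difference 0.90 ± 0.32, limma adjusted p 0.778, and 0.57 without it). AXIN2, a feedback target of WNT signalling, read 7.10, 5.95, 6.88 and 6.75 in restricted cells, against 7.50, 7.76, 6.65 and 7.96 in control cells. Control_8011 lay among the restricted arrays, and the difference was -0.80 ± 0.31 (limma adjusted p 0.780). The WNT receptor FZD7 differed by 0.53 ± 0.24, and SOX9 by 0.41 ± 0.38, or 0.07 without restricted_2820.

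Surface markers of stromal progenitors had 2 of 16 tested genes lower at an unadjusted p under 0.05 (12.5%, against 3.92% of all genes) and none higher. Of the 16, 5 were above 0 (31.3%, against 48.8%), and the median difference was -0.11. CD248, or endosialin, read 10.77, 10.56, 10.34 and 11.31 in restricted cells, against 11.65, 11.89, 12.70 and 11.43 in control cells. All restricted arrays lay below the controls, with restricted_9073 and control_8009 closest, and the difference was -1.18 ± 0.29 (limma adjusted p 0.643). ANPEP, the aminopeptidase CD13, read 7.43, 6.44, 7.19 and 7.28 in restricted cells, against 7.77, 7.83, 7.97 and 7.63 in control cells. Its groups did not overlap either, and restricted_2820 was lowest (difference -0.71 ± 0.20, and -0.50 without it). PI16, a marker of fibroblast-like progenitors, read 7.26, 5.85, 6.28 and 8.23 in restricted cells, against 6.68, 9.36, 7.92 and 8.62 in control cells, so the groups overlapped. CD34 differed by -0.69 ± 0.47 with overlap, and PDGFRA, a receptor that marks fat progenitors, by -0.01.

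Limb and posterior identity genes gave 0 higher (against 3.20% of all genes) and 3 lower of 16 (18.8%, against 3.92%) at an unadjusted p under 0.05, and a median difference of -0.02. IRX3, a homeobox gene of limb and trunk, read 12.13, 11.75, 10.85 and 11.98 in restricted cells, against 12.61, 12.31, 12.45 and 12.51 in control cells. Controls were tightly grouped above the restricted arrays, and the difference was -0.80 ± 0.24 (limma adjusted p 0.734), or -0.52 without restricted_9075. PRRX1, a homeobox gene of limb mesenchyme, read 6.80, 6.53, 6.95 and 6.87 in restricted cells, against 7.62, 7.50, 7.30 and 6.99 in control cells (difference -0.56 ± 0.15, limma adjusted p 0.653). The second of its 2 tested probes went the other way. IRX5 differed by -0.47 ± 0.21 with overlapping arrays, and by -0.31 without restricted_2820. IRX2 differed by -0.38 ± 0.45, and by 0.11 without restricted_2820, where it read 5.92. The HOX genes that mark position had differences near 0, with HOXC8 at 0.05, HOXC9 at 0.05 and HOXC10 at 0.03. The hindlimb factor PITX1 read 10.11, 6.25, 9.07 and 5.75 in restricted cells, against 8.87, 8.16, 8.38 and 7.15 in control cells, so the restricted arrays enclosed the controls.

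**Figure D2:**
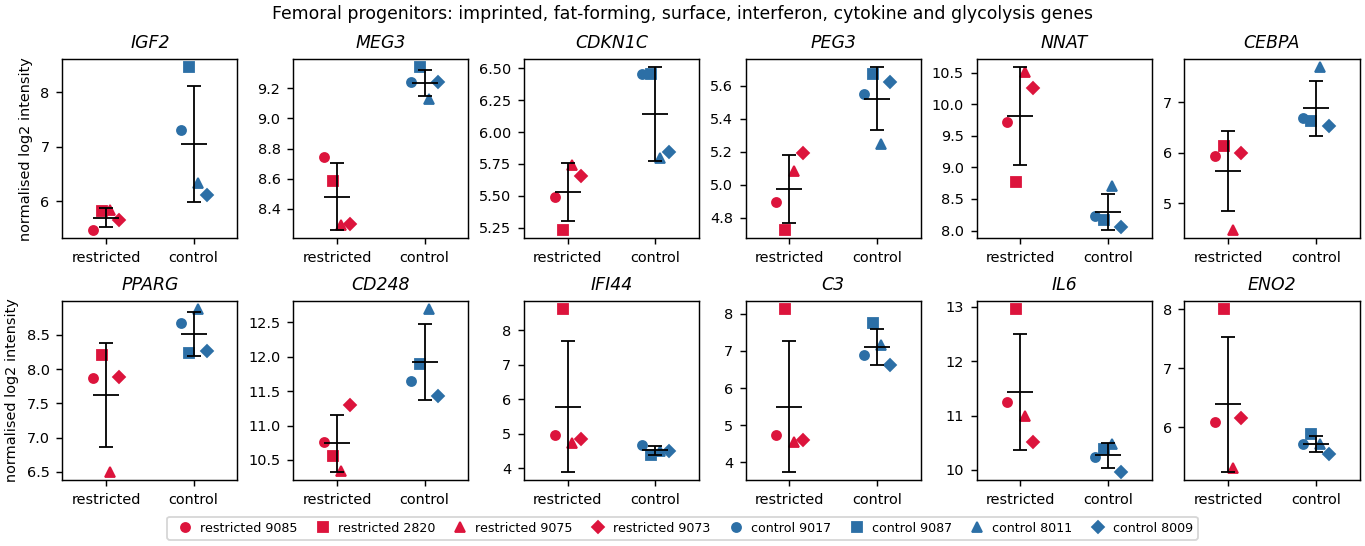
Normalised log2 intensity on the 4 restricted (red, left) and 4 control arrays (blue, right) for genes of the imprinted, fat-forming, surface, interferon, cytokine and glycolysis lists; points are fetuses marked by shape and bars are the mean and SD. Restricted arrays lie below the controls for IGF2, MEG3, CDKN1C, PEG3, CEBPA, PPARG and CD248, while for IFI44, C3 and ENO2 a single restricted array, restricted_2820, stands far above the other 3.

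Oxidative phosphorylation genes encode the respiratory chain. Of 26 tested genes, 22 were above 0 (84.6%, against 48.8% of all genes), 2 were higher (7.69%, against 3.20%) and none lower at an unadjusted p under 0.05, and the median difference was 0.11. The arrays did not share this: the median deviation of these genes from the mean of the 8 arrays was -0.12 in restricted_2820, below the lowest control at -0.10, and 0.06 to 0.21 in the other 3 restricted arrays. Without restricted_9075, which was the highest of 8 arrays for 13 of them, 21 were above 0 and the median was 0.07. Without restricted_2820, 25 were above 0 and the median was 0.17. NDUFV2, a subunit of complex I, read 10.96, 10.95, 10.87 and 10.71 in restricted cells, against 10.82, 10.23, 10.13 and 10.34 in control cells. Control_9017 lay inside the restricted range and the other 3 controls below it (difference 0.49 ± 0.15, limma adjusted p 0.730). UQCRH, of complex III, differed by 0.35 ± 0.13 with no overlap, cytochrome c, CYCS, by 0.34 ± 0.16 and NDUFB3 by 0.30 ± 0.15, or 0.18 without restricted_9075. COX6B1, of complex IV, was furthest below 0 at -0.29, but at 0.08 without restricted_2820.

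Hypoxia and glycolysis genes had 25 of 30 above 0 (83.3%, against 48.8% of all genes), with 3 higher (10.0%, against 3.20%) and none lower at an unadjusted p under 0.05 and a median difference of 0.19. Without restricted_2820, 17 of 30 were above 0 and the median was 0.07. That array was the highest of 8 for 22 of the 30. PFKFB4, which makes the activator of phosphofructokinase, read 9.06, 11.33, 9.07 and 9.63 in restricted cells, against 9.40, 9.29, 8.79 and 8.83 in control cells. Only restricted_2820 stood clear of the rest, and the difference of 0.70 ± 0.46 was 0.18 without it. ENO2, an enolase, read 6.09, 8.01, 5.31 and 6.17 in restricted cells, against 5.72, 5.88, 5.72 and 5.56 in control cells (difference 0.67 ± 0.47, and 0.13 without restricted_2820). ENO1 differed by 0.50 ± 0.36 and PFKFB3 by 0.45 ± 0.24, with 0.30 and 0.19 without that array.

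Of 17 tested interferon response genes, 13 were at their highest in the same array. IFI44, an interferon-induced gene, read 4.97, 8.63, 4.74 and 4.84 in restricted cells, against 4.69, 4.40, 4.49 and 4.51 in control cells, where it was not detected. Its restricted signal was at least 2.04-fold higher (limma adjusted p 0.845), a bound set by restricted_2820, and the difference of 1.27 was 0.33 without that array. IFIT1, a sensor of viral RNA, read 5.30, 8.84, 5.13 and 4.82 in restricted cells, against 5.12, 5.20, 5.30 and 4.69 in control cells. The other 3 restricted arrays were thus at the control level, and the difference of 0.94 ± 0.77 was 0.00 without restricted_2820. IFI27 differed by 1.31 ± 0.89 and IFI6 by 0.84 ± 0.71, with 0.33 and 0.04 without that array. Over the list, 13 genes were above 0 (76.5%, against 48.8% of all genes), none reached an unadjusted p under 0.05, and the median difference was 0.33. Without restricted_2820, 7 of 17 were above 0 and the median was -0.03.

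The list level of an array, the median over a list's genes of their deviation from the mean of the 8 arrays, was 1.65 for interferon genes in restricted_2820. It ran from -0.42 to -0.04 in the other 3 restricted arrays, and from -0.25 to -0.16 in the controls. Why this fetus stood apart was not tested.

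Cytokines and NF-kB targets had 14 of 20 above 0 (70.0%, against 48.8% of all genes), 2 higher (10.0%, against 3.20%) and none lower at an unadjusted p under 0.05, and a median difference of 0.12. Without restricted_2820, 8 of 20 were above 0 and the median was -0.04. IL6 read 11.24, 12.96, 10.9997 and 10.52 in restricted cells, against 10.24, 10.39, 10.48 and 9.97 in control cells. Every restricted array lay above every control, and the difference of 1.16 ± 0.44 (limma adjusted p 0.780) was 0.65 without restricted_2820. The neutrophil chemokine CXCL8 read 8.67, 12.34, 7.58 and 8.37 in restricted cells, against 8.99, 6.14, 8.32 and 6.90 in control cells (difference 1.65 ± 1.00, and 0.62 without restricted_2820). C3, the central complement protein, read 4.73, 8.14, 4.55 and 4.59 in restricted cells, against 6.89, 7.76, 7.17 and 6.62 in control cells. Its probe was undetected on 3 restricted arrays, and in restricted_2820 it was above every control. Its difference was -1.61 ± 0.74 (limma adjusted p 0.805) over all arrays, and -2.49 without restricted_2820 (limma adjusted p 0.0659).

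**Figure D3:**
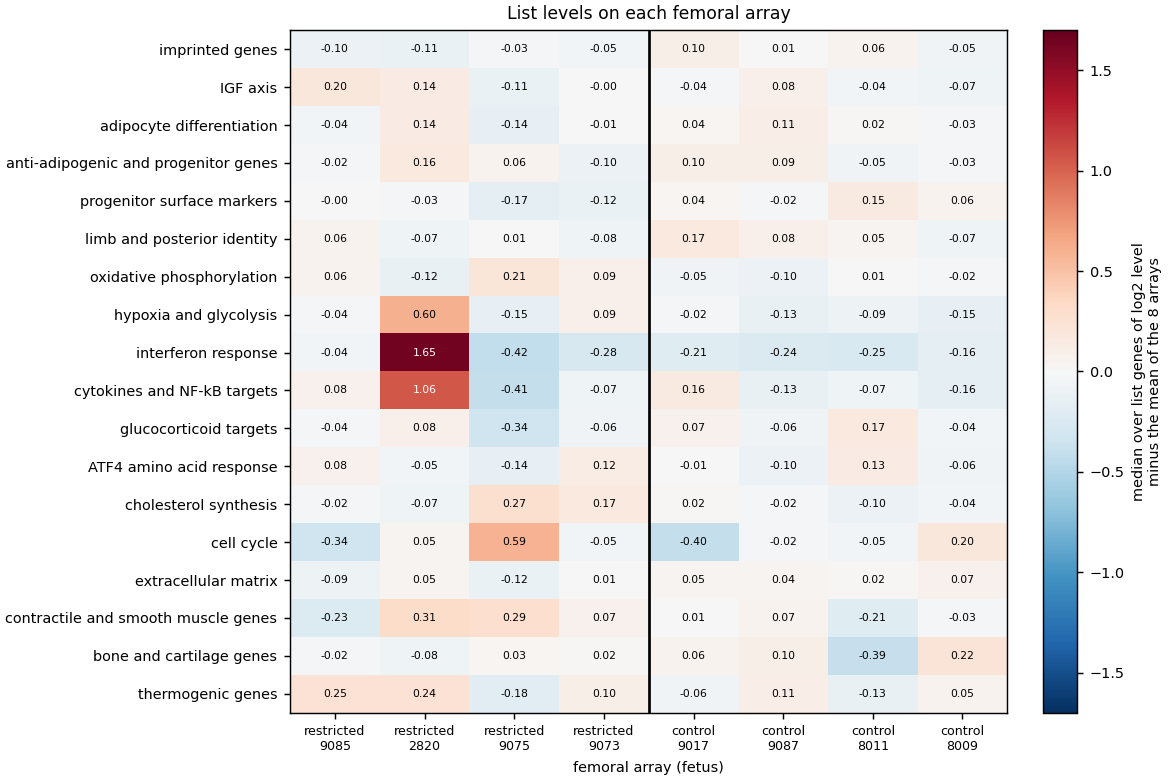
List level on each femoral array (columns, restricted left of the line and control right of it): the median over the tested genes of each list (rows) of the log2 level minus the mean of the 8 arrays, on a colour scale from blue (below) to red (above). Array restricted_2820 has 1.65 for interferon, 1.06 for cytokine and 0.60 for hypoxia and glycolysis genes, and restricted_9075 has 0.59 for cell cycle genes.

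Glucocorticoid targets had 8 of 17 above 0 (47.1%, against 48.8% of all genes) and 0 higher and 2 lower (11.8%, against 3.92%) at an unadjusted p under 0.05, with a median difference of -0.01. The glucocorticoid receptor NR3C1 read 7.35, 7.80, 6.96 and 7.09 in restricted cells, against 7.46, 7.38, 7.73 and 7.31 in control cells. Its arrays overlapped, the difference was -0.17 ± 0.18, or -0.06 without restricted_9075, and 1 of its 2 tested probes went the other way. HSD11B1, which activates cortisol within cells, read 4.93, 7.39, 4.61 and 4.69 in restricted cells, against 4.55, 4.70, 5.26 and 4.86 in control cells (difference 0.56 ± 0.55, and -0.10 without restricted_2820). SERPINA3 differed by -0.39 ± 0.11, CRISPLD2 by -0.48 ± 0.27 and the metallothionein MT2A by -0.48 ± 0.45, all with overlap. Over the list, restricted arrays lay wholly below the controls for 1 of the 17 genes (5.88%, against 2.33% of all genes).

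The amino acid response driven by ATF4 had 11 of 22 above 0, 3 higher (13.6%, against 3.20% of all genes) and 1 lower (4.55%, against 3.92%) at an unadjusted p under 0.05, and a median difference of -0.02. ATF3, a stress-induced factor, read 5.10, 4.79, 5.59 and 5.16 in restricted cells, against 4.62, 4.69, 4.89 and 4.84 in control cells. Restricted_2820 overlapped with the controls, and the difference was 0.40 ± 0.16 (limma adjusted p 0.780), or 0.25 without restricted_9075. SLC3A2, the heavy chain of amino acid transporters, differed by -0.31 ± 0.14, and by -0.20 without restricted_2820. FGF21, a hormone of nutrient stress, read 6.11, 9.08, 5.94 and 6.24 in restricted cells, against 5.67, 5.67, 7.005 and 5.67 in control cells. A single array was high in each group, and the difference of 0.84 ± 0.66 was 0.10 without restricted_2820.

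Cholesterol synthesis genes had 13 of 16 above 0 (81.3%, against 48.8%), 4 higher (against 3.20% of all genes) and none lower at an unadjusted p under 0.05, and a median difference of 0.05. Without restricted_9075, which was highest for 9 of the 16, 7 were above 0 and the median was -0.03, and without restricted_2820 the median was 0.17. EBP, a sterol isomerase, read 7.80, 7.34, 8.03 and 7.81 in restricted cells, against 7.17, 7.27, 7.31 and 7.07 in control cells. The groups did not overlap, with restricted_2820 just above the controls (difference 0.54 ± 0.14, limma adjusted p 0.643, and 0.67 without it). SC5D, a sterol desaturase, read 8.01, 8.07, 8.10 and 8.16 in restricted cells, against 7.74, 7.05, 7.80 and 7.97 in control cells, a difference of 0.45 ± 0.18. ACAT2, which makes acetoacetyl-CoA, differed by 0.32 ± 0.10, also without overlap, and TM7SF2 by 0.25 ± 0.23 with overlap, or 0.03 without restricted_2820.

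Cell cycle genes had 21 of 29 above 0 (72.4%, against 48.8% of all genes), none at an unadjusted p under 0.05 in either direction, and a median difference of 0.17. Restricted_9075 was the highest array for 19 of them, and without it 13 were above 0 and the median was -0.01. UBE2C, which drives exit from mitosis, read 8.67, 9.60, 10.23 and 8.99 in restricted cells, against 8.44, 9.16, 8.99 and 9.46 in control cells. The groups overlapped, and the difference of 0.36 ± 0.33 was 0.07 without restricted_9075. CDKN1A, the cell cycle inhibitor p21, differed by 0.45 ± 0.26, with 1 of its 2 tested probes going the other way. TYMS, thymidylate synthase, read 6.31, 6.28, 8.81 and 8.91 in restricted cells, against 6.36, 6.17, 9.57 and 6.58 in control cells. High arrays were found in both diets, and the difference of 0.41 was 0.00 without restricted_9075. The CDKN2A probe was not detected on control arrays and on 2 restricted arrays.

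Extracellular matrix genes had 16 of 43 above 0 (37.2%, against 48.8% of all genes), 1 higher (2.33%, against 3.20%) and 2 lower (4.65%, against 3.92%) at an unadjusted p under 0.05, and a median difference of -0.08. COL3A1, a fibrillar collagen, read 8.06, 8.005, 6.77 and 7.58 in restricted cells, against 8.42, 8.69, 7.92 and 8.17 in control cells. Control_8011 lay just inside the restricted range (difference -0.69 ± 0.28, limma adjusted p 0.783, and -0.42 without restricted_9075). Periostin, POSTN, differed by -0.73 ± 0.37 and FBLN2 by 0.87 ± 0.57, with overlap. COL6A1 read 11.48, 11.47, 11.42 and 11.52 in restricted cells, against 7.87, 11.87, 11.25 and 11.90 in control cells. A single control array, control_9017, was low, and the difference of 0.75 ± 0.78 was -0.21 without it. Whether this human probe matches the sequence of every fetus was not assessed.

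Contractile genes had 12 of 17 above 0 (70.6%, against 48.8% of all genes), 2 higher (11.8%, against 3.20%) and none lower at an unadjusted p under 0.05, and a median difference of 0.08. Their list level was -0.23, 0.31, 0.29 and 0.07 on the restricted arrays, against -0.21 to 0.07 on the control arrays. Restricted_2820 was the highest of 8 arrays for 10 of the 17. Without it 13 were above 0 and the median was 0.04, and without restricted_9075 10 were and it was 0.05. ANKRD1, a target of YAP in stretched cells, read 8.56, 9.61, 8.66 and 8.45 in restricted cells, against 7.56, 7.48, 8.26 and 7.05 in control cells. The groups did not overlap, and the difference was 1.24 ± 0.30 (limma adjusted p 0.643), or 0.97 without restricted_2820. CCN1, a second YAP target, differed by 0.34 ± 0.13 and the tropomyosin TPM1 by 0.26 ± 0.16 (0.11 without restricted_2820, and 1 of its 4 tested probes went the other way), while the smooth muscle myosin MYH11 differed by -0.56 ± 0.40.

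Of 13 tested bone and cartilage genes, 8 were above 0 (61.5%, against 48.8% of all genes), 2 were lower (15.4%, against 3.92%) and none higher at an unadjusted p under 0.05, and the median difference was 0.10. COMP, a cartilage matrix protein, read 7.28, 6.34, 5.87 and 6.83 in restricted cells, against 7.17, 7.75, 7.40 and 7.97 in control cells (difference -0.99 ± 0.29, limma adjusted p 0.730). Restricted_9085 overlapped with the controls. Osteoglycin, OGN, differed by -1.18 ± 0.44, and by -0.79 without restricted_2820. The calcification inhibitor MGP differed by 1.00 ± 0.68 and aggrecan, ACAN, by 0.90 ± 0.50, with restricted_9075 highest for each. Without it MGP was 0.43 and ACAN 0.39, and 1 of the 2 ACAN probes went the other way. Only 4 thermogenic genes were tested. COX7A1, a respiratory subunit of brown fat and muscle, read 7.49, 7.51, 7.06 and 7.19 in restricted cells, against 6.84, 6.80, 6.97 and 6.94 in control cells. Its groups did not overlap (difference 0.43 ± 0.12, limma adjusted p 0.677). EBF2 differed by -0.29 ± 0.27, DIO2 by -0.28 ± 0.26 and UCP2 by 0.08 ± 0.14, all with overlap. EBF2 was -0.09 without restricted_9075, and DIO2 -0.05 and UCP2 0.04 without restricted_2820.

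**Figure D4:**
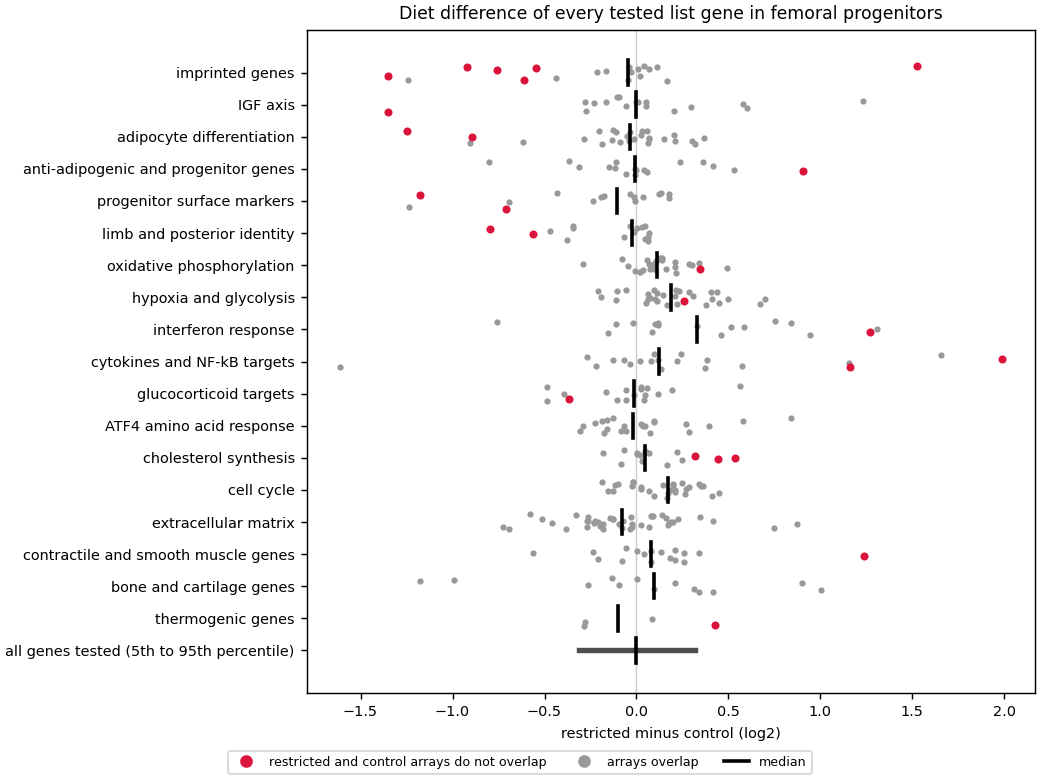
Restricted minus control difference (log2, horizontal axis) of every tested gene of the 18 lists (rows), with red points where the 4 restricted and 4 control arrays do not overlap, grey points where they do, and black bars at list medians; the bottom row gives the 5th to 95th percentile and median of all 10228 genes. The largest list medians are 0.33 for interferon and 0.19 for hypoxia and glycolysis genes, and single imprinted genes stand out on either side.

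Markers of other cell types were read on the same arrays. The blood markers PTPRC, CSF1R and HBB, the nerve sheath markers S100B and NGFR and the fat cell markers PLIN1 and CFD were detected on none of the 8 arrays. Nor were the endothelial markers CDH5 and CLDN5 or the muscle factors MYOD1 and MYOG. Other markers of the same lists were detected on all 8 arrays. These included CD14 and CD68 of the blood list, the fat cell marker LEP, the endothelial marker TEK and the muscle markers MYF6, PAX7 and TNNT1. SOX10, of the nerve sheath list, was detected on 3 restricted and 2 control arrays. Of the 9 epithelial markers on the array, 7 were detected on at least 1 femoral array and 2 on all 8. Their summed signal (linear intensity over the tested markers) ran from 277 to 512 on restricted arrays, against 236 to 454 on control arrays. KRT19, a keratin of simple epithelia and mesothelium, read 5.33, 6.70, 5.64 and 4.99 in restricted cells, against 4.47, 4.43, 4.40 and 4.59 in control cells, where it was undetected. Its restricted signal was at least 1.86-fold higher (limma adjusted p 0.643). EPCAM, an epithelial adhesion protein, differed by 0.60 ± 0.26 without overlap (limma adjusted p 0.794), and by 0.30 without restricted_9075. Other epithelial markers did not share these values. CLDN4 differed by -0.17 and was detected on 1 restricted and 3 control arrays, KRT14 differed by 0.07, and CDH1 differed by 0.32, or -0.31 without restricted_2820. KRT5 was detected on 0 restricted and 2 control arrays, KRT15 on 0 restricted and 1 control, and KRT8 and KRT18 on none.

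The other marker lists overlapped between the diets. Summed progenitor markers ran from 45385 to 63349 on restricted arrays, against 60110 to 63137 on control arrays, with 8 of 10 markers detected on all 8 arrays. All 9 tested progenitor markers had differences below 0, with a median of -0.18, while 48.8% of all genes were above 0. Their list level was 0.11, 0.03, -0.19 and -0.14 on the restricted arrays, against -0.02 to 0.14 on the control arrays. Without restricted_9075, PDGFRA was 0.05 and NT5E 0.01, and without restricted_2820 COL1A1 was 0.02. The other tested markers stayed below 0 in each case. At a limma unadjusted p under 0.05, 1 of the 9 was lower (11.1%, against 3.92% of all genes). Mature fat cell markers summed to 145 to 176 on restricted arrays, against 143 to 161 on control arrays. Endothelial markers summed to 298 to 421 on restricted arrays, against 269 to 369 on control arrays, and macrophage and blood markers to 222 to 588, against 257 to 307. Pericyte and smooth muscle markers ran from 1969 to 2968 on restricted arrays and from 2369 to 2976 on control arrays. Skeletal muscle markers ran from 753 to 1585 on restricted arrays, against 995 to 1178 on control arrays. Schwann and neural markers gave 48.8 to 125 on restricted arrays, against 45.4 to 115 on control arrays, and mesothelial markers 138 to 228, against 125 to 158. The part of other cell types in the diet differences was not tested.

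The femoral difference was then set against that of the other depots of the same fetuses, by testing the interaction of diet with depot over 16 arrays. Limma called 0 of 16933 probes against omental cells and 0 against abdominal cells (0.00% each). An unadjusted p under 0.05 was reached by 392 probes (2.32%) against omental and by 322 (1.90%) against abdominal cells, or by 214 genes (2.09%) and 170 genes (1.66%). With the fetus as a replicate block, which pairs the depots of a fetus, these counts were 688 (4.06%) and 722 (4.26%), and calls remained at 0. No femoral gene was therefore shown to differ in its diet response from another depot, and a missed threshold does not show that the depots act alike.

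Several named genes differed in the same direction in the 3 depots, which share their fetuses. For MEG3 the differences were -0.76 ± 0.12 in femoral cells, -0.90 ± 0.30 in abdominal cells and -0.74 ± 0.12 in omental cells. TNFRSF11B differed by 1.98 in femoral, 1.84 in abdominal and 1.54 in omental cells, and PGAP4 by 0.62, 0.82 and 0.62. PSG9 differed by 1.29 in femoral, 2.11 in abdominal and 1.34 in omental cells, and IL6 by 1.16, 1.15 and 1.24. The interactions of these 5 genes ran from -0.82 to 0.44.

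Other genes had a femoral difference further from 0 than in the other depots. Femoral or interaction values, or earlier results of these data, chose these genes. That choice favours such a contrast and a small interaction p. CD248 differed by -1.18 in femoral cells, against -0.36 in abdominal and 0.20 in omental cells. Its interaction against omental cells was -1.38 (limma unadjusted p 0.00299 without the block). KITLG differed by -1.11 in femoral cells, against -0.37 in abdominal and -0.28 in omental cells. Its interactions were -0.75 and -0.83 (limma unadjusted p 0.148 and 0.00920 without the block, 0.0490 and 0.0022 with it). ARNT2 differed by -0.95 in femoral cells, against 0.11 in abdominal and -0.18 in omental cells. PPARG differed by -0.89 in femoral cells, against 0.47 in abdominal and -0.48 in omental cells, and CEBPA by -1.25, against -0.63 and -0.12. None of these interactions passed adjustment in limma (adjusted p 1.00 for each without the block, and 0.447 to 0.997 with it).

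In the fit without the block, the genes with the smallest interaction p against omental cells were TNNT3 (-0.73), NTNG1 (-1.04), SLC45A1 (0.40), CD248 and BTBD6 (0.53). Their limma unadjusted p values were 0.00025 to 0.0031. NTNG1, a netrin-related membrane protein, read 4.97, 4.38, 4.49 and 4.46 in restricted cells, against 4.97, 5.65, 6.17 and 5.68 in control cells. It was detected on 1 restricted array and 4 control arrays, and its difference was -1.04 ± 0.24 in femoral cells, against 0.27 in abdominal and -0.00 in omental cells. Against abdominal cells the smallest p values, also without the block, were those of EGFL8 (0.65), C1QTNF5 (-0.71), KICS2 (0.45), CHD3 (-0.38) and SLITRK4 (-0.58). C1QTNF5, a secreted C1q-family protein, read 5.93, 5.77, 5.84 and 5.70 in restricted femoral cells, against 6.40, 6.56, 5.98 and 6.62 in control cells. It differed by -0.58 ± 0.14 in femoral cells, against 0.13 in abdominal cells. The CHD3 probe was detected on no femoral array.

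**Figure D5:**
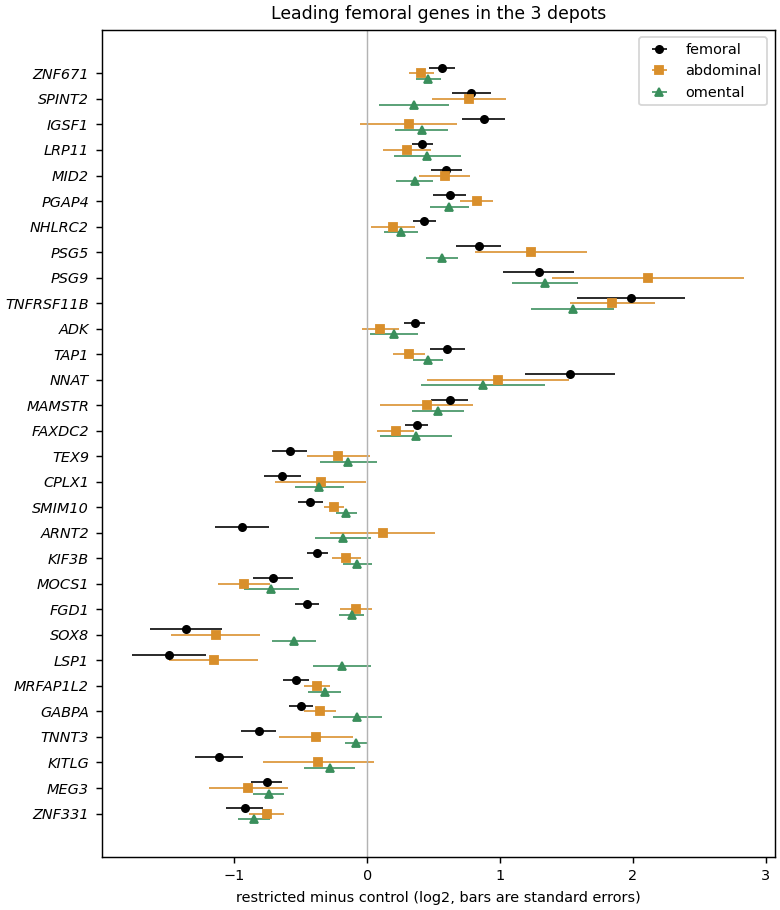
Restricted minus control difference (log2, with standard errors as bars) of the 15 higher and 15 lower genes of smallest p in femoral cells (rows), in femoral (black circles), abdominal (orange squares) and omental cells (green triangles). TNFRSF11B has 1.98, 1.84 and 1.54 in that order and ARNT2 -0.95, 0.11 and -0.18; the femoral values chose the genes, and no interaction passed.

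A few genes passed only when arrays were left out or added, and they were chosen after their values were seen. ITGB1BP1, which binds the tail of integrin beta 1, read 8.23, 5.53, 5.68 and 5.95 in restricted cells, against 7.87, 8.83, 8.24 and 9.01 in control cells. Restricted_9085 lay inside the control range while the other 3 restricted arrays lay far below it. ITGB1BP1 differed by -2.14 ± 0.56 (limma adjusted p 0.643), by -2.77 without restricted_9085 (0.0280) and by -2.98 in female fetuses alone (0.0346). The matrix protein gene ECM2 read 9.73, 8.44, 8.45 and 8.60 in restricted cells, against 9.99, 9.72, 9.77 and 9.58 in control cells, and again restricted_9085 sat with the controls. It was called without restricted_9085 (limma adjusted p 0.0261) and in female fetuses alone (0.0423). KITLG, ARNT2 and the adhesion gene NCAM1 were also called without restricted_9085 (limma adjusted p 0.0331, 0.0261 and 0.0331).

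ERCC1, a nuclease subunit of DNA repair, read 4.65, 4.55, 4.99 and 6.10 in restricted cells, against 6.69, 6.61, 6.23 and 6.59 in control cells. Restricted_9073 came close to the lowest control, and the difference was -1.46 ± 0.31 (limma adjusted p 0.542). ERCC1 was called without restricted_9073 (limma adjusted p 0.0284) and, with ZNF331, ZNF671 and SMIM10, when all 24 arrays shared 1 fit with the fetus as a random block (0.0188 to 0.0466). Of its 4 tested probes, 3 were below 0. In the 3 depots ERCC1 differed by -1.46 in femoral, -1.15 in abdominal and -1.29 in omental cells, and ITGB1BP1 by -2.14, -2.24 and -2.10. The depots share their fetuses, so these values are not independent of each other, and whether the 2 human probes match the sequence of every fetus was not assessed.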

How the data were processed

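Single-channel Illumina bead arrays with human probes were read from baboon RNA, and mismatches between probe and transcript were not assessed. Differences therefore compare the same probe between arrays. Levels of different probes were used to pick the brightest probe of a gene, to name dimmer ones and to sum markers, where mismatches could matter. The deposited table holds the average intensity of each probe, from the values background-subtracted but not yet made comparable between arrays by the authors. It also holds a detection p-value for each reading, per the file headers. Scanner software is not given in the sources used here, nor are chip positions or dates, so no batch could be tested. Column names carry the depot letter and the fetus number, which assigned them to samples.

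All 24 arrays were normalised together with neqc (offset 16, quantile) using R 4.3.3 and limma 3.58.1 (statmod 1.5.0). Probes detected at p under 0.05 on at least 4 of 24 arrays were tested with lmFit and eBayes on the 8 femoral arrays, two-sided, with Benjamini-Hochberg adjustment over 16933 probes. Tried on simulated data with planted changes, the test recovered all of the larger and most of the smaller ones, with a few false calls. The simulated noise was independent between probes and held no shift shared over an array. The trial therefore checks the fit and does not give the power of the test on these arrays. Differences are restricted minus control on the log2 scale. Of 48803 probes, 28098 had 1 symbol in the platform annotation, 13 several and 20692 none, and only the first were named. Tables were handled in Python 3.11.15 with pandas 2.3.3 and numpy 2.4.6, and plots drawn with matplotlib 3.10.9.

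The members and lists were chosen with earlier results of these data known. Named are the 15 genes higher and 15 lower of smallest p, the 4 members of each list with the largest difference, the 5 of smallest p in each interaction, 11 fixed genes, and detected markers. Of 539 listed symbols, 481 were on the array and 359 were tested.

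Within a depot the diets share no fetus, so no pairing applied. Depots of 1 fetus are paired: femoral deviations from the group mean correlated with those of the same fetus at 0.28 to 0.63 in omental and 0.36 to 0.67 in abdominal cells, each above its highest value with another fetus. Alternatives covered background, normalisation, deposited series matrix intensity values, filters, sex, female fetuses alone, 1 fit of all arrays, variance model, each fetus left out and the block.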

Additional observations from a re-analysis of the deposited data

Results flagged for a closer look

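Within each diet group of 4 femoral arrays, the highest or lowest array was flagged where its gap to the next one took up more of the group's range than Dixon's 95% critical value. Chance flags about 1 in 20 groups, and 20 flags arose among 218 gene groups and 1 among 54 list groups. Array restricted_2820 held 7 of the 21 flags and control_8011 held 6.

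Array restricted_2820 was far above the other 3 restricted arrays for IFI44 (8.63), IFIT1 (8.84), C3 (8.14), HSD11B1 (7.39), FGF21 (9.08) and CDKN2A (5.64), and for the level of the endothelial marker list (0.20). Array control_8011 was far above the other 3 control arrays for CEBPA (7.69), FGF21 (7.005) and TYMS (9.57), and below them for PFKFB3 (8.10). It was above them by a narrow margin for LRP11 (9.02, against 8.93 at most) and SLITRK4 (5.30, against 5.20 at most). In restricted_9085, ARNT2 was far above its group (7.31) and EGFL8 far below it (4.90), and CEBPA was lowest in restricted_9075 (4.47). Among controls, SPINT2 was below the rest in control_9087 (9.95) and EGFL8 above the rest (5.17). SERPINA3 was low in control_8009 (5.32), and ACAT2 (9.23) and COL6A1 (7.87) in control_9017. All values are normalised log2 intensities, except the list level.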

How the results depend on the processing

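Across 18 alternatives, the count of 0 diet calls became 3 in female fetuses alone, 4 when 1 fit held all 24 arrays with fetus as random block, and 0 to 5 when each fetus was left out, with 5 without restricted_9085 and 1 without restricted_9073. One of the 3 calls in female fetuses was a probe with no gene name. Probes at an unadjusted p under 0.05 numbered 2514 with no filter on dim probes, where all 48803 were tested, and 874 to 1336 when each fetus was left out. Interaction calls were 0 under every alternative run, and the replicate block gave 688 and 722 probes at an unadjusted p under 0.05 against omental and abdominal cells. None of the 109 named genes passed in the main fit. Of their 1938 values under the alternatives, 1921 kept their direction and side of the threshold and 5 passed it. These were ZNF671 (0.56), ZNF331 (-0.92) and SMIM10 (-0.43) in the fit of all arrays, and KITLG (-1.28) and ARNT2 (-1.17) without restricted_9085. The other 12 changed sign. IRX2 was 0.11 and HSD11B1 -0.10 without restricted_2820, and TYMS -0.034 without restricted_9073. In female fetuses alone COL6A1 was -0.21, UCP2 -0.038 and SLITRK4 0.059. With each fetus left out, IRX2 ran from -0.61 to 0.11, HSD11B1 from -0.10 to 0.83, TYMS from -0.034 to 1.21, COL6A1 from -0.21 to 1.14, UCP2 from -0.019 to 0.19 and SLITRK4 from -0.14 to 0.066. With series matrix values, 27 of the 109 differences were over 1.5 times as large, among them those of the dim probes of ZNF331 (-3.92), ZNF671 (3.38), IFI44 (3.37), PSG5 (2.45), TNNT3 (-2.23) and SMIM10 (-1.62), and without the normexp background step 6 were. Their causes were not tested. Without restricted_2820, 22 of the 109 shrank over 1.5 times or turned sign, and 6 grew over 1.5 times. Without restricted_9075 these counts were 13 and 4. Keeping the side of a threshold that no gene had passed says nothing of such shifts in size. A list median counted as moved where it shifted by at least the pooled SD of the list level within the diet groups. A single far array widens that SD. By this rule 6 of 324 list medians moved. Among them were imprinted genes (-0.10 with series matrix values, -0.12 without control_9017) and surface markers (-0.24 with probes detected on all 8 arrays). Glucocorticoid targets were another (-0.19 without control_9087). Not counted were interferon genes (0.33, and -0.03 without restricted_2820) and cytokines (0.12, and -0.04 without restricted_2820). Nor were cell cycle genes (0.17, and -0.01 without restricted_9075). No scaling moved the median difference of all probes by over 0.02. Dim probes, among them ZNF331, SMIM10, ZNF671 and KRT19, are limited by signal over background.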
